A study of Mus musculus with 22 samples.

Results

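NFKBIE-ko leukemia cells recovered from the peritoneal cavity (PC) of mice were compared with NFKBIE-ko cells kept in culture. The comparison holds 7 of the 22 RNA-seq samples of the series, 4 from the PC and 3 from culture, chosen by their sample titles. GEO's labels give blood as the tissue of all of them, which fits neither group, and the titles were followed. The cells are TCL1-355-TKO, a line from the Eμ-TCL1 mouse model of chronic lymphocytic leukemia (CLL), whose autoreactive B cell receptor binds phosphatidylcholine. The line carries biallelic loss-of-function lesions that include Cdkn2a and Cdkn2b, so both groups lack these cell cycle inhibitors, and it grows in vitro without added stimuli. In both groups Nfkbie, which encodes the NF-kB inhibitor IκBε, had been targeted in exon 2 with a Cas9 ribonucleoprotein, and the edited cells were used as a pool and not as 1 clone. For the PC group the cells were propagated in a mouse for 21 days, transplanted intraperitoneally into 5 C57BL/6 recipients, and recovered after 10 days, and 4 of the samples were sequenced, so that the PC samples are recipients of 1 propagated population. For the in vitro group, cells from the spleens of 3 other mice were cultured for 2 weeks. The PC cells were not purified, so these samples can hold RNA of the resident cells of the cavity. Site, source mice, time and the presence of host cells therefore differed together between the groups and cannot be told apart. The 7 NFKBIE-wt samples of the same design, from mock-edited cells, were used to test whether an effect differed between genotypes and to set a few levels beside those of NFKBIE-wt cells.

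IκBε holds NF-kB dimers in the cytoplasm and is itself induced by NF-kB, so that it ends the response of a B cell to its receptor, to Toll-like receptors and to cytokines. CLL cells rest in the blood and divide in tissues where they meet antigen and accessory cells, and in the Eμ-TCL1 model the PC is a site where the leukemia accumulates early. The normal cavity holds B-1 cells and large peritoneal macrophages, which depend on the transcription factor GATA6, beside smaller monocyte-derived macrophages, mast cells and a few lymphocytes. Dividing cells switch on replication genes through E2F factors and mitotic genes through MuvB complexes, and they make cholesterol through SREBP2 when sterols are scarce.

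The guide that was used matches GRCm39 chr17:45869436-45869455 on the plus strand, inside coding exon 2 of Nfkbie, and is shown because this edit is what both groups share. It reads 5′ to 3′, with the adjacent genomic PAM in capitals:
Nfkbie guide and PAM: agtgattcacgaagccccgtCGG
Nfkbie transcripts were present at 66.0, 47.2, 56.8 and 48.1 CPM, the counts scaled to the same library total, in the 4 PC samples and at 54.5, 58.3 and 46.9 CPM in the 3 cultures. The groups overlapped, and the log2 difference was 0.04 ± 0.13 (SE; edgeR quasi-likelihood test with Benjamini-Hochberg adjustment, adjusted p = 0.816). In the scaling over all 22 samples the NFKBIE-ko PC samples lay between 47.2 and 64.9 CPM and the NFKBIE-wt PC samples between 67.3 and 91.2 CPM, without overlap. The NFKBIE-ko cultures lay between 48.1 and 59.9 CPM, and the libraries labelled NFKBIE-wt in vitro stood at 117, 141 and 54.3 CPM. In culture the genotypes overlapped only through the last, labelled replicate 3, which went against its label, as described below. In the spleen samples the genotypes overlapped as well, with 54.2 to 120 CPM in NFKBIE-ko and 70.9 to 124 CPM in NFKBIE-wt. The 124 CPM belongs to the library labelled NFKBIE-wt spleen replicate 4, which also went against its label. Replicates 1 to 3 stood at 72.7, 70.9 and 76.8 CPM, still within the NFKBIE-ko range. Small insertions and deletions need not change the amount of a transcript, and these gene totals do not read them.

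Each library held 24036763 to 26581304 estimated counts, with overlapping ranges in the groups. Values are CPM after TMM scaling, and a gene was called when its adjusted p was below 0.05 and its log2 difference between PC and culture was beyond 1 in either direction. Within either group the samples differed by more than sampling noise, so no sample was a copy of another. A bulk sample cannot tell fewer cells of a type from less RNA per cell, and a log2 difference here is a difference in the share of all transcripts.

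2 NFKBIE-wt libraries went against their labels. Across 13537 genes, as log2 CPM, the library labelled NFKBIE-wt culture replicate 3 had correlations (Pearson's r) of 0.968 to 0.977 with the libraries labelled NFKBIE-wt spleen replicates 1 to 3, and of 0.924 and 0.898 with NFKBIE-wt in vitro replicates 1 and 2. The library labelled NFKBIE-wt spleen replicate 4 had correlations of 0.978 and 0.973 with those cultures, and of 0.912 to 0.934 with those spleen samples. Erythroid genes summed to 1446 CPM in the former and to 6.88 CPM in the latter, against 283 to 2044 CPM in the other NFKBIE-wt spleen samples and at most 20.7 CPM in the other NFKBIE-wt cultures. These correlations are across genes, which are not independent, and describe the libraries. Samples were grouped as labelled. Neither library entered the comparison of NFKBIE-ko PC with culture, and tests of a difference between genotypes are given with and without the library labelled NFKBIE-wt culture replicate 3.

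Of 12721 genes tested, 2205 were called higher in the PC (17.3%) and 738 were called lower (5.80%), by the edgeR test. Of the 2205 genes, 697 (31.6%) had no more than 3 counts in any culture. In the opposite direction this held for 15 of the 738 genes. Among the 9207 genes with a mean of at least 5 CPM in both groups the calls were nearer to balance, with 575 higher (6.25%) and 419 lower (4.55%). The calls were mostly protein-coding genes, 2111 of those gained and 700 of those lost, and lncRNAs made up 17 and 3. The values of the 2 groups did not overlap for 2166 of the genes called higher and 730 of those called lower, against 69.0% of all genes tested. The median log2 difference over all genes tested was 0.03. Without regard to size, 36.0% of all genes were higher and 31.8% lower at an adjusted p below 0.05. The share called in each gene list is to be read against 17.3% for higher and 5.80% for lower. Shares given without regard to size are to be read against 36.0% and 31.8%.

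**Figure D1:**
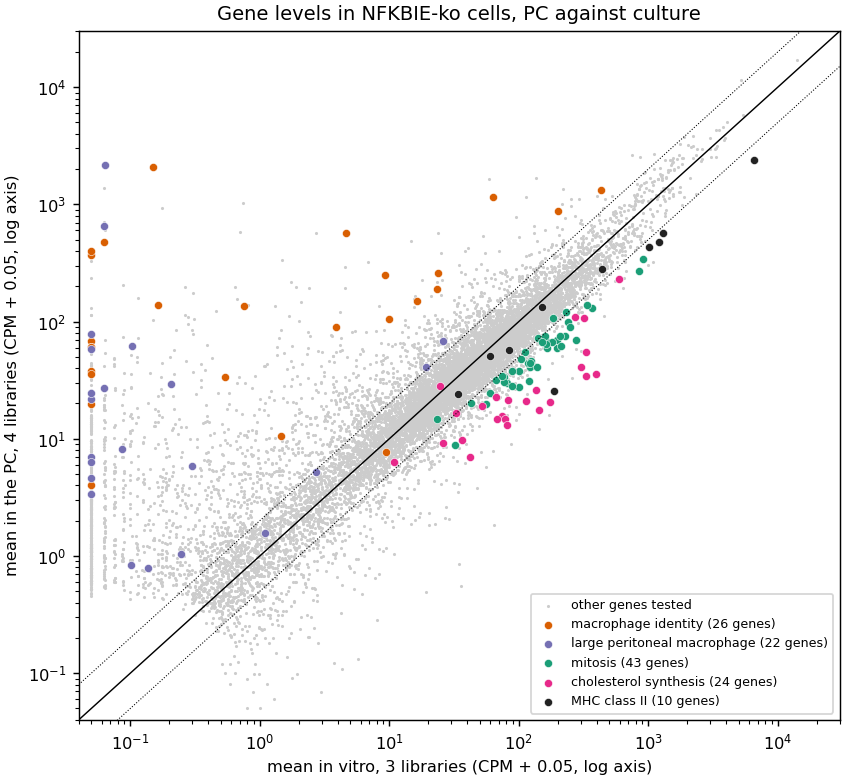
Mean level of each gene tested in the 3 cultures (x axis, CPM plus 0.05, log scale) against the 4 PC samples (y axis, same scale) of NFKBIE-ko cells, 1 point per gene. The solid line marks equal levels and the dotted lines a difference of 1 on the log2 scale. Macrophage genes stand far above the line, many at or near 0 in culture, while mitotic and cholesterol genes lie below it at levels where both groups express them.

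The genes with the largest gains were mostly genes known from macrophages and other myeloid cells. The 10 protein-coding genes with the largest fold were Saa3, F13a1, C1qc, Ccl6, C1qa, Wfdc17, Gda, Selenop, Fn1 and Ccl9, and each was at no more than 1 count over the 3 cultures together. Saa3, an acute-phase serum amyloid A protein made by macrophages, stood at 1650, 3124, 1464 and 2440 CPM in the PC and had 1 count in all cultures. F13a1, the catalytic chain of coagulation factor XIII, stood at 386, 499, 416 and 372 CPM in the PC with no count in culture, which makes it at least 3659-fold higher against a floor of 3 counts per library. C1qa and C1qc, chains of the complement component C1q, were at least 3264-fold and at least 3483-fold higher on the same floor. Ccl6 and Ccl9, chemokines of myeloid cells, had means of 1389 and 604 CPM in the PC.

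Where both groups expressed the gene, the largest gains were in lysosomal and myeloid genes and in 1 glucocorticoid target. Cathepsin genes Ctsl and Ctsb were 47.2-fold and 28.1-fold higher, Cd68, a lysosomal membrane protein of macrophages, was 27.4-fold higher, and Apoe, the lipid carrier apolipoprotein E, was 18.1-fold higher. Tsc22d3, which encodes the glucocorticoid-induced leucine zipper GILZ, stood at 427, 467, 504 and 536 CPM in the PC against 14.1, 15.4 and 14.1 CPM in culture. Its log2 difference of 5.05 ± 0.10 (SE, adjusted p = 8.35e-10 by edgeR) came with narrow groups that did not overlap. Acp5, Fcgr4, Myof, Ms4a6d and Anxa2, the other genes of this set, were 15.3-fold to 23.9-fold higher.

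The genes with the largest losses came from many functions. Sh3bgr fell most, from 35.8, 36.8 and 35.0 CPM in culture to 0.81, 0.20, 0.43 and 0.56 CPM in the PC, a log2 difference of -6.14 ± 0.22 (SE, adjusted p = 3.00e-08 by edgeR). Nqo1, a quinone reductase and a standard target of the oxidative stress factor NRF2, fell 42.9-fold, from 20.6, 16.2 and 21.0 CPM in culture to under 1 CPM in each PC sample. Axin2, a feedback target of Wnt signalling, fell 12.5-fold, and Aire, the regulator of tissue antigens in the thymus, fell by 3.70 on the log2 scale. The adhesion molecule gene Dscam, the microtubule genes Map1a and Kif17, and Utp14b, Pacsin1 and Igsf3 completed the 10, with falls of 11.2-fold to 42.5-fold. With at least 5 CPM required in both groups, 4 of the 10 largest losses were cholesterol genes (Sqle, Idi1, Msmo1 and Insig1). Socs2, a feedback inhibitor of cytokine receptors, was another, falling from 166, 159 and 190 CPM to 17.6, 18.5, 13.1 and 14.3 CPM. Mef2b, a transcription factor of germinal centre B cells, fell 9.63-fold, and Nrep, Hivep3 and Dusp5 fell 7.81-fold to 9.82-fold.

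Transcripts of the mitotic machinery were lower in the PC as a block. Of 43 mitosis genes tested, 39 were called lower and 0 higher, against 5.80% and 17.3% of all genes, and the other 4 were also lower with adjusted p below 0.05. Their median log2 difference was -1.42, against 0.03 for all genes tested, and for none of the 43 did the groups overlap. Summed over the list, the level was 2912 ± 300 CPM in the PC (SD, n = 4) and 7731 ± 77.7 CPM in culture (SD, n = 3), 2.65 times as much. Mki67, the gene of the proliferation marker Ki-67, stood at 333, 293, 202 and 256 CPM in the PC and at 782, 800 and 963 CPM in culture. Its log2 difference was -1.65 ± 0.16 (SE, adjusted p = 3.66e-05 by edgeR). Kif20a, a kinesin of the central spindle, had the largest fall of the list, from 282, 267 and 278 CPM to 77.5, 75.9, 57.5 and 67.3 CPM. Cdc20, an activator of the anaphase-promoting complex, fell 3.33-fold, Ccnb1 and Cdk1, which form the mitotic kinase, fell 3.06-fold and 2.87-fold, and Top2a, the topoisomerase that untangles chromosomes, fell 2.66-fold. The smallest fall of the list was that of the kinase gene Pbk, 1.58-fold. Each of these genes was still read in every PC sample.

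Replication genes were lower by less. All 39 tested had an adjusted p below 0.05 and a lower level in the PC, a direction and threshold that 31.8% of all genes met, and 19 of them were past the log2 limit of 1. The median log2 difference was -0.99, and the summed level was 2787 ± 214 CPM (SD, n = 4) against 5372 ± 237 CPM (SD, n = 3). Clspn, a mediator of the replication checkpoint, stood at 42.2, 43.3, 33.9 and 36.3 CPM in the PC against 115, 103 and 118 CPM in culture. Mcm5 and Mcm10, of the replication helicase and its loading, fell 2.29-fold and 2.62-fold, and Rrm2, the regulated subunit of ribonucleotide reductase, fell 2.36-fold. Pcna, the sliding clamp, was 1.49-fold lower and Cdt1, the licensing factor, 1.25-fold lower. The last values are under the limit for a call although their groups did not overlap.

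Regulators of G1 moved in both directions. Of 23 tested, 4 were called higher and 4 lower, 17.4% each, which for the higher direction is the share of all genes (17.3%) and for the lower direction is above theirs (5.80%). Without regard to size, 13 were lower at an adjusted p below 0.05 (56.5%, against 31.8% of all genes) and 6 were higher (26.1%, against 36.0%). The median log2 difference was -0.47. The genes of cyclins E1 and E2 (Ccne1 and Ccne2), which drive S phase entry, fell 2.04-fold and 2.13-fold, and the E2F-family repressors E2f7 and E2f8 fell 2.77-fold and 2.52-fold. Ccnd3, cyclin D3, rose from 32.4, 36.1 and 32.9 CPM to 136, 121, 160 and 158 CPM. Ccnd1, cyclin D1, stood at 17.4, 27.9, 23.2 and 20.1 CPM in the PC and had 1 count in all 3 cultures. The ratio of its counts was 1745 (exact 95% interval 313 to 68971, for counting error only). Macrophage genes were gained in the same samples, and their part in the Ccnd1 level was not tested. The CDK inhibitor gene Cdkn1a (p21) rose 2.42-fold and Cdkn2d (p19) 2.03-fold, the last just past the limit, while Cdkn1b (p27) was 1.79-fold higher and Ccnd2 gave a log2 difference of -0.06 (adjusted p = 0.596 by edgeR).

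Promoter sequences of these lists were searched for motifs known from the regulation of such genes. The sequences are the RefSeq promoters on GRCm38.p6, from 250 bases before to 50 after each start, read on both strands. The CHR element, searched as TTTGAA, was in the promoters of 25 of the 34 mitosis genes with a promoter sequence, against 20.2% of all 27025 genes, and CCAAT was in 26 of the 34, against 41.1%. Of the 32 replication genes with a sequence, TTTCCCGC was in 6, against 1.24% of all genes, and TTTGGCGC was in 7, against 0.585%. A match describes the letters and does not show a bound factor. Stretches of 140 bases from the promoters of Cdc20 (minus strand, chr4:118437298-118437437) and Mcm3 (minus strand, chr1:20820263-20820402) are shown as 1 example of each list, in the direction of transcription. CHR and CCAAT matches are in capitals in the first, and both E2F-type matches are in capitals in the second.
Cdc20: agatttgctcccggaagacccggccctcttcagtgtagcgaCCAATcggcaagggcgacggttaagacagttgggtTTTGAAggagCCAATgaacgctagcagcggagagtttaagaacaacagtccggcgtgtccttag
Mcm3: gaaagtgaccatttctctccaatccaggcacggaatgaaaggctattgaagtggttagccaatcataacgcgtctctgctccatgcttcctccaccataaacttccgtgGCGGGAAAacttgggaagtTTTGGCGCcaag

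**Figure D2:**
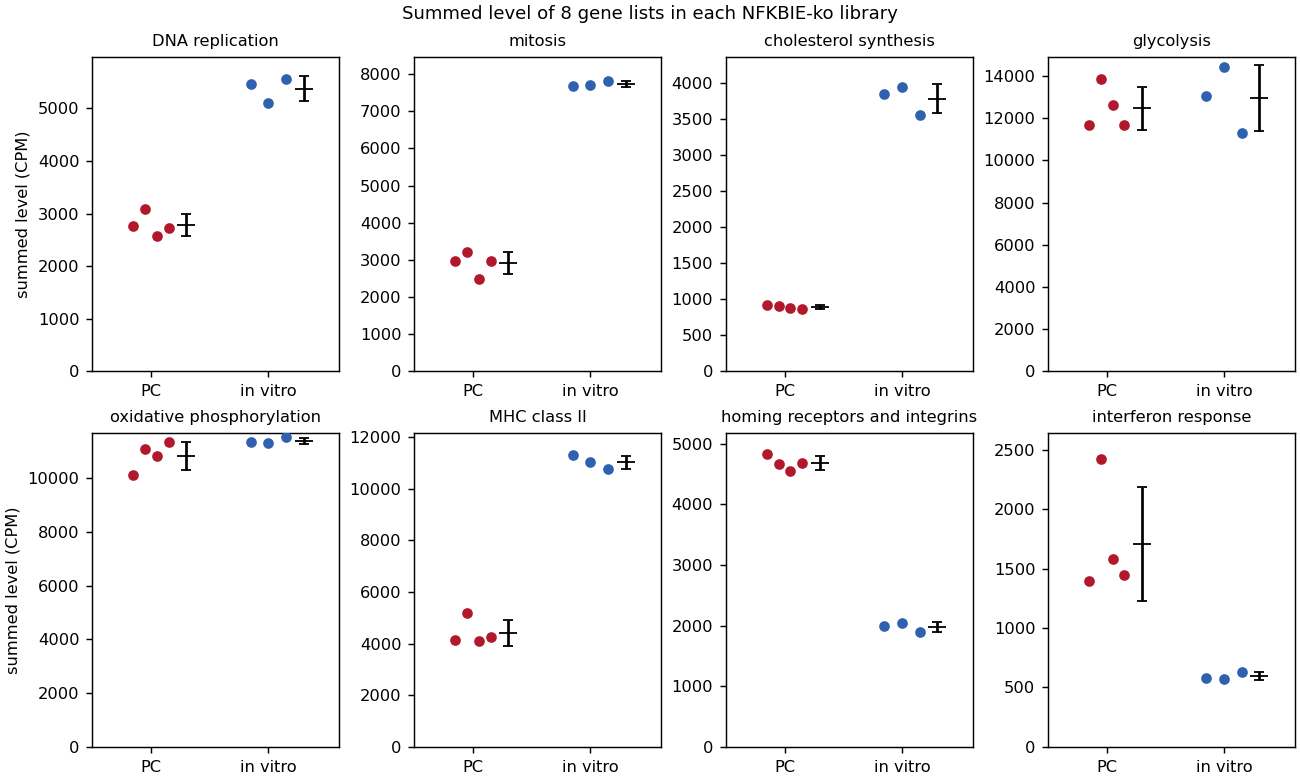
Summed level of 8 gene lists (y axis, CPM from 0) in each NFKBIE-ko sample, 4 from the PC in red and 3 from culture in blue, with the mean and SD at the right of each group. Replication, mitosis, cholesterol and MHC class II sums do not overlap and are lower in the PC, the homing and interferon sums are higher, and the glycolysis sums of the groups overlap.

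Cholesterol synthesis and uptake genes were lower in the PC almost throughout. Of 24 tested, 21 were called lower (87.5%, against 5.80% of all genes) and 0 higher, with a median log2 difference of -2.24. The summed level was 894 ± 26.8 CPM in the PC (SD, n = 4) and 3782 ± 203 CPM in culture (SD, n = 3), 4.23 times as much, and the groups overlapped for none of the 24 genes, where 69.0% of all genes did not overlap. Sqle, squalene epoxidase and an oxygen-dependent step of the pathway, stood at 35.8, 36.8, 34.3 and 37.2 CPM in the PC against 404, 406 and 364 CPM in culture. Its log2 difference of -3.44 ± 0.06 (SE, adjusted p = 6.84e-10 by edgeR) was the largest of the list. Idi1, isopentenyl diphosphate isomerase, fell 9.59-fold, Msmo1, a sterol C4-demethylation enzyme, 8.61-fold, and Cyp51, the lanosterol demethylase, 5.96-fold. Hmgcs1, HMG-CoA synthase, stood at 40.4, 40.5, 41.5 and 40.4 CPM in the PC against 309, 330 and 275 CPM in culture.

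Regulators of the pathway were lower too. Insig1, a sterol sensor that is itself an SREBP2 target, fell 8.15-fold, and Srebf2, which encodes SREBP2, fell 2.59-fold. The exceptions were Pmvk and Tm7sf2, 1.98-fold and 1.74-fold lower and so under the limit, and Ebp, which was 1.13-fold higher at 25.8 to 29.6 CPM against 24.3 to 25.3 CPM (adjusted p = 0.0481 by edgeR). The core of the sterol regulatory element, searched as CACCCCAC, was in the promoters of 2 of the 17 genes with a sequence, Acat2 and Hmgcs1, against 3.30% of all genes. A stretch of 140 bases from the Hmgcs1 promoter (plus strand, chr13:119690149-119690288, GRCm38.p6, RefSeq) is shown because its match is 1 of these 2, with the match in capitals.
Hmgcs1: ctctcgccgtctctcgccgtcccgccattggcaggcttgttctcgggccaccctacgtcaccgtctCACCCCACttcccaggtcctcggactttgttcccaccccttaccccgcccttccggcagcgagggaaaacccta

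**Figure D3:**
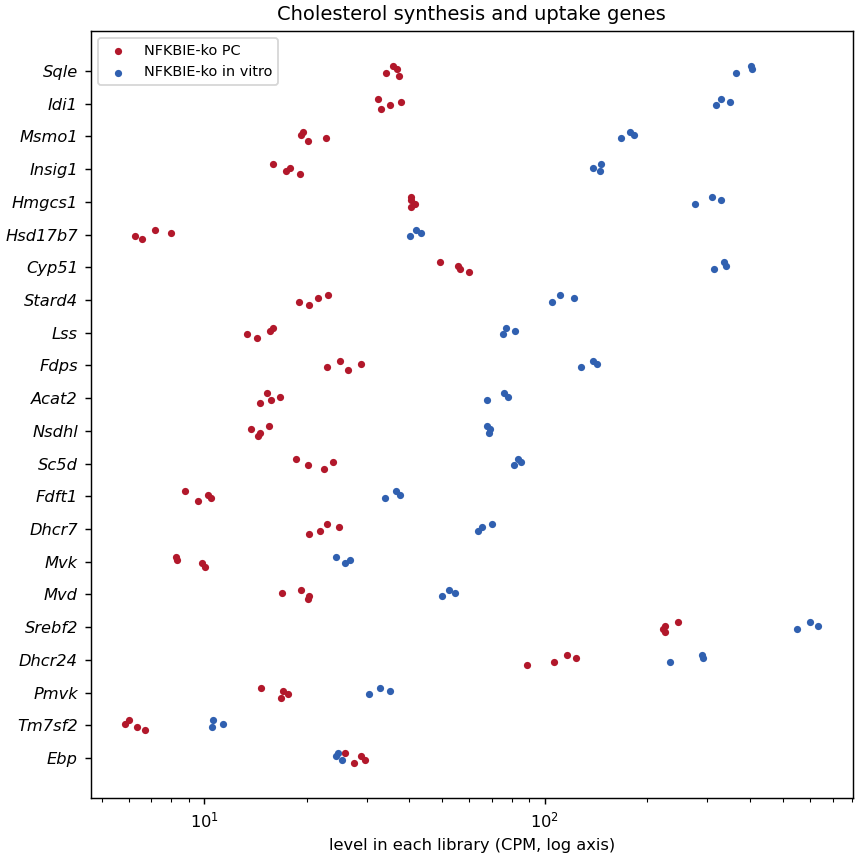
Level of 22 of the 24 cholesterol synthesis and uptake genes (rows, ordered by log2 difference) in every NFKBIE-ko sample (x axis, CPM, log scale), PC in red and culture in blue. For 21 genes all PC points lie left of all culture points, and Ebp alone lies slightly to the right.

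Other lipid genes did not move as 1 group. Of 14 fatty acid synthesis genes, 2 were called higher (14.3%, against 17.3% of all genes) and 2 lower (14.3%, against 5.80%). Their median log2 difference was 0.00. Scd1 and Scd2 are paralogous stearoyl-CoA desaturases and moved in opposite directions. Scd1 stood at 2861, 2432, 2389 and 2558 CPM in the PC against 820, 936 and 826 CPM in culture, while Scd2 stood at 317, 333, 334 and 311 CPM against 1126, 1056 and 1095 CPM. Their coding sequences are alike, so the split of reads between them carries some uncertainty. Fasn, fatty acid synthase, was 1.48-fold lower and Acly, ATP citrate lyase, 1.11-fold higher. Fads1 and Fads2 were called in opposite directions at levels below 10 CPM. In fatty acid oxidation, 3 of 18 genes were called higher and 0 lower, and 16.7% is near the 17.3% of all genes. Cpt1a, the carnitine transferase that admits fatty acids to mitochondria, rose 2.54-fold to 167, 151, 142 and 145 CPM, and its partner carrier Slc25a20 rose 2.07-fold. The third was Pparg, at 0.95 to 1.47 CPM in the PC and without a count in culture. Without regard to size, 12 of the 18 oxidation genes were higher at an adjusted p below 0.05 (66.7%, against 36.0% of all genes). In the lower direction it was 1 (5.56%, against 31.8%), and the median log2 difference of the list was 0.40.

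Glycolysis genes moved in both directions, at shares near those of all genes. Of 23 tested, 5 were called higher (21.7%, against 17.3% of all genes) and 2 lower (8.70%, against 5.80%), and the median log2 difference was 0.06. Slc2a1, the glucose transporter GLUT1, stood at 108, 122, 110 and 102 CPM in the PC against 40.8, 53.6 and 30.3 CPM in culture. Pfkfb3 and Pfkfb4, which set the level of the activator of phosphofructokinase, rose 3.01-fold and 2.88-fold, and the lactate exporter gene Slc16a3 rose 2.26-fold. Hk3, a hexokinase typical of myeloid cells, was at 17.5 to 35.1 CPM against 0.07 to 0.71 CPM. Gapdh, Ldha and Pkm gave log2 differences of -0.14, 0.06 and -0.34, and Aldoc and Eno2 fell 3.07-fold and 2.11-fold. Glycolytic transcripts also varied within the cultures, with sums of 11318 to 14446 CPM that overlapped the 11664 to 13847 CPM of the PC. The hypoxia element core ACGTG was in 15 of 23 promoters of the list, against 21.8% of all genes.

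Of 19 genes of the hypoxia list, 7 were called higher (36.8%, against 17.3% of all genes) and 0 lower, with a median log2 difference of 0.54. Ndrg1 stood at 190, 213, 187 and 212 CPM in the PC against 35.5, 45.1 and 28.5 CPM in culture. Ddit4, an inhibitor of mTORC1 that hypoxia and glucocorticoids both induce, stood at 526, 554, 510 and 570 CPM against 46.1, 68.6 and 43.0 CPM, a 10.3-fold rise. Vegfa, the vascular growth factor, rose 5.31-fold, and P4ha1, a collagen prolyl hydroxylase, rose 2.18-fold. The other 3, P4ha2, Car9 and Ak4, were at or near 0 in culture. Adm, adrenomedullin, another standard target, was instead 1.59-fold lower in the PC.

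Mitochondrial energy genes encoded in the nucleus stayed near their culture level. Of 72 oxidative phosphorylation genes, 0 were called in either direction by edgeR, and the median log2 difference was -0.01. At an adjusted p below 0.05 without regard to size, 13 were higher and 14 lower. These are 18.1% and 19.4%, against 36.0% and 31.8% of all genes. Atp5f1a, a core subunit of ATP synthase, was 1.38-fold lower. In the tricarboxylic acid cycle 1 of 23 genes was called, Pcx, pyruvate carboxylase, which fell 2.04-fold. The 13 genes encoded by mitochondrial DNA, looked at after their values were seen, had a median log2 difference of 0.69 with 4 called higher (mt-Co1, mt-Co2, mt-Atp6 and mt-Nd4). They took 2.27% to 3.73% of the counts of the PC samples and 1.37% to 2.12% of those of the cultures, without overlap.

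Nucleotide synthesis genes were mostly lower by a small amount. Of 20 tested, 14 had an adjusted p below 0.05 and a lower level (70.0%, against 31.8% of all genes), none of these past the limit, and the median log2 difference was -0.47. Gart, a purine synthesis enzyme, was 1.57-fold lower. The exception was Impdh1, the isoform of IMP dehydrogenase of resting cells, at 45.7, 54.1, 51.4 and 56.6 CPM in the PC against 7.82, 8.92 and 6.64 CPM in culture. Of 25 genes of amino acid synthesis and the integrated stress response, 2 were called higher (Nupr1 and Vldlr) and 2 lower (Gpt2 and Cth). These are 8% each, against 17.3% and 5.80% of all genes. Past an adjusted p below 0.05 without regard to size, 5 of the 25 were higher, a smaller share than the 36.0% of all genes, and 10 were lower, near their 31.8%, with Psat1, of serine synthesis, 1.70-fold lower and Gpt2, an alanine transaminase, falling 2.03-fold. Among 8 metallothionein and zinc transport genes Mt1 fell 2.27-fold, Mt2 gave a log2 difference of 0.31 (adjusted p = 0.0727 by edgeR) and the zinc transporter gene Slc39a8 rose, from below 1 CPM. The ATF4 element TGATGNAAN was in 8 of 25 promoters of the stress list against 4.50% of all genes, and the metal element TGCNCNC was in 9 of 9 against 53.6%.

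**Figure D4:**
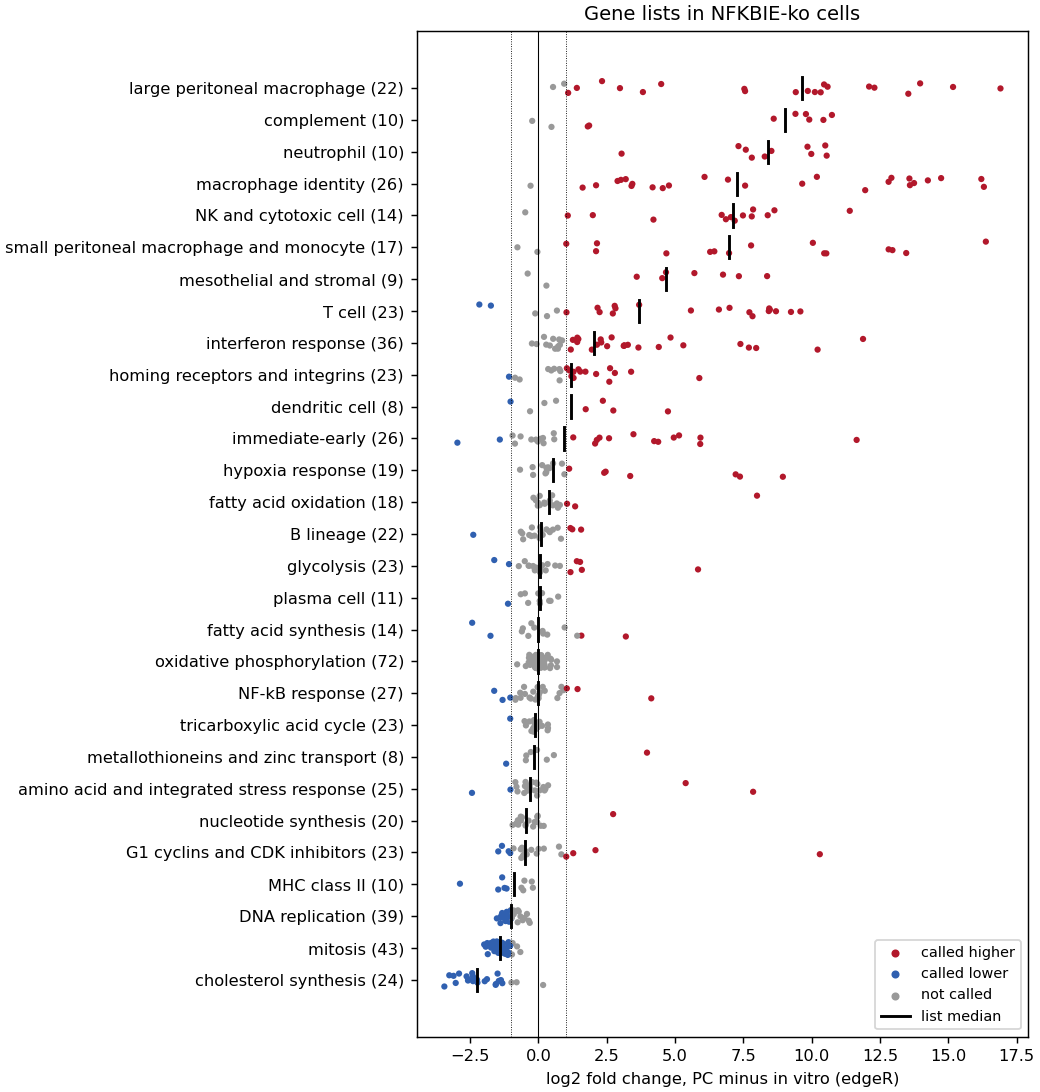
Log2 difference between PC and culture (x axis, edgeR) of each gene tested in the 29 lists with at least 8 genes tested, 1 point per gene, coloured by call, with the list median as a bar and the number tested in brackets. Cholesterol, mitosis and replication genes lie left of 0, oxidative phosphorylation genes sit within 1 of 0, and the lists of macrophages and other cell types reach far to the right.

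Macrophage transcripts were gained across their list. Of 26 macrophage identity genes, 25 were called higher (96.2%, against 17.3% of all genes) and 0 lower, with a median log2 difference of 7.25, or 6.51 when the 10 genes with no more than 3 counts in any culture are set to their fold against 3 counts. Axl was the exception, at 5.79 to 11.6 CPM against 7.72 to 11.9 CPM. The summed level was 8898 ± 977 CPM in the PC (SD, n = 4) and 800 ± 44.6 CPM in culture (SD, n = 3). Lyz2, lysozyme, stood at 1732, 2501, 1964 and 2107 CPM in the PC and at or below 0.18 CPM in each culture. Csf1r, the receptor for the macrophage growth factor CSF1, stood at 122, 166, 119 and 133 CPM against 0.60 to 0.77 CPM. Cd14, a co-receptor for bacterial lipopolysaccharide, had no count in culture and was at least 592-fold higher. Adgre1, which encodes F4/80, was found at 20.1 to 27.9 CPM in the cultures and rose 10.8-fold. Lyz2, Csf1r and Cd14 were thus at or near 0 in culture, while Adgre1 and some other genes of the list were expressed there.

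Genes of the 2 peritoneal macrophage types were both gained. The counts of calls here stand beside 17.3% of all genes called higher and 5.80% called lower. Of 22 large peritoneal macrophage genes, 20 were called higher and 0 lower, and the summed level was 2300 to 4407 CPM in the PC against 45.0 to 56.8 CPM in culture. The median log2 difference was 9.64, or 5.85 with the 13 genes at or under 3 counts set to their fold against 3 counts. Gata6, the defining factor, stood at 3.09, 4.01, 2.85 and 3.48 CPM with no count in culture, and Timd4, a phosphatidylserine receptor of resident macrophages, stood at 5.10, 8.17, 5.40 and 8.89 CPM. F10, coagulation factor X, was at least 691-fold higher. Prg4, lubricin, was uneven, at 71.5, 79.0, 23.4 and 73.4 CPM. Of 17 genes of small peritoneal macrophages and monocytes, 15 were called higher and 0 lower, with a summed level of 2579 to 3359 CPM against 368 to 388 CPM. Arg1, arginase 1, stood at 871, 1176, 987 and 1068 CPM against 0.56 to 0.93 CPM. Ly6c2, by contrast, was 1.70-fold lower. Of 10 complement genes 8 were called higher and 0 lower, among them C3, at 564, 893, 381 and 472 CPM against under 1 CPM in each culture.

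The marker lists of other cell types had smaller sums, and which cells these transcripts came from was not tested. Their counts of calls stand beside 17.3% of all genes called higher and 5.80% called lower. All 10 neutrophil genes tested were called higher, with a summed level of 58.3 to 76.4 CPM in the PC and at most 0.62 CPM in culture. Of 14 NK and cytotoxic genes, 13 were called higher and 0 lower, with Gzma, granzyme A, at 11.4, 8.33, 18.9 and 14.4 CPM and no count in culture. Of 23 T cell genes, 18 were called higher and 2 lower, with a summed level of 559 to 659 CPM in the PC and 353 to 413 CPM in culture. Cd3e, Cd8a and Trbc2 stood at 1.08 to 4.88 CPM in the PC and at or below 0.08 CPM in culture. The T cell genes Cd3g and Cd6 went the other way, falling 3.34-fold and 4.47-fold, and Lck and Tcf7 were expressed at over 100 CPM in both groups, so parts of this list were expressed in the cultures too. Of 9 mesothelial and stromal genes, 7 were called higher and 0 lower, led by the keratins Krt8 and Krt18 at 119 to 158 and 79.8 to 116 CPM, while Msln, the defining mesothelial gene, did not exceed 0.30 CPM in any sample and was not tested. The dendritic cell list had 4 of 8 called higher and 1 lower, the eosinophil list 1 and 2 of 3, the endothelial list 1 and 1 of 3, the erythroid list 3 and 1 of 5 and the platelet list 1 and 0 of 3. The single mast cell gene tested, Hdc, rose 14.7-fold. The summed level of the eosinophil list was lower in the PC. The part of other cells in each gain of this comparison was not tested gene by gene.

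Against this, the B cell genes kept most of their level. Of 22 B lineage genes, 3 were called higher and 1 lower (13.6% and 4.55%, against 17.3% and 5.80% of all genes). The median log2 difference was 0.08, and the summed level was 14203 to 14624 CPM in the PC and 12369 to 12673 CPM in culture. Ighm, the IgM heavy chain, gave a log2 difference of 0.08 ± 0.06 (SE, adjusted p = 0.261 by edgeR), and Cd79a was 1.23-fold higher. Cd79b, the other signalling chain of the B cell receptor, stood at 707, 793, 828 and 880 CPM against 259, 290 and 266 CPM. Syk, the kinase next to the receptor, rose 2.36-fold, and Ms4a1, which encodes CD20, rose 2.25-fold. Cd22, an inhibitory co-receptor, fell from 165, 174 and 165 CPM to 34.6, 38.9, 27.3 and 28.0 CPM. Pax5 and Cd5 were 1.56-fold and 1.51-fold lower and were not called. Plasma cell genes gave 0 called higher and 1 lower of 11, Sdc1, below 6 CPM in every sample.

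MHC class II genes, which B cells and macrophages both express, were lower in the PC. Of 10 tested, 5 were called lower (50.0%, against 5.80% of all genes) and 0 higher, with a median log2 difference of -0.89 and a summed level of 4121 to 5185 CPM in the PC against 10774 to 11286 CPM in culture. Ciita, the master regulator of these genes, stood at 26.4, 33.8, 20.6 and 21.3 CPM in the PC against 192, 177 and 192 CPM in culture, a log2 difference of -2.87 ± 0.16 (SE, adjusted p = 1.12e-06 by edgeR). Cd74, the invariant chain, fell 2.77-fold, and H2-Aa, H2-Ab1 and H2-Eb1, the classical chains, fell 2.24-fold to 2.51-fold. H2-DMa, a peptide-loading factor, gave a log2 difference of -0.20 (adjusted p = 0.112 by edgeR).

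Genes of migration and adhesion rose. Of 23 tested, 14 were called higher (60.9%, against 17.3% of all genes) and 1 lower, with a median log2 difference of 1.21. Klf2, a transcription factor of quiescent, recirculating lymphocytes, stood at 463, 296, 429 and 422 CPM in the PC against 41.0, 39.7 and 34.2 CPM in culture. Its known target S1pr1, the receptor for egress, rose 3.30-fold. Cxcr5, the receptor for the follicular and peritoneal chemokine CXCL13, stood at 248, 249, 314 and 315 CPM against 49.5, 50.0 and 40.1 CPM. Gpr183, an oxysterol receptor that positions B cells, rose 6.16-fold, and the integrin genes Itga4 and Itgb2 rose 2.43-fold and 6.96-fold. Macrophages also express Itgb2, and their part in its level was not tested. Ccr7, which guides cells into lymph nodes, fell 2.11-fold.

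Interferon response genes rose, with a wide spread between the PC samples. Of 36 tested, 24 were called higher (66.7%, against 17.3% of all genes) and 0 lower, with a median log2 difference of 2.05 and a summed level of 1395 to 2420 CPM against 572 to 632 CPM. PC sample 2 was the highest for this list. Irf7, the amplifying interferon regulatory factor, stood at 58.5, 97.3, 72.3 and 71.1 CPM against 3.65, 3.03 and 3.90 CPM. Zbp1, a sensor of nucleic acids, stood at 61.0, 127, 80.4 and 60.5 CPM against 5.84, 5.99 and 7.68 CPM. Slfn5 rose 39.5-fold and Rsad2, viperin, 28.6-fold, while Oas1a, with no count in culture, was at least 162-fold higher. Isg15 and Ifit2 gave log2 differences of 0.29 and -0.07 and were not called. The interferon element, searched as GAAANNGAA, was in the promoters of 21 of the 30 genes with a sequence, against 9.76% of all genes. A stretch of 140 bases from the Rsad2 promoter (minus strand, chr12:26456498-26456637, GRCm38.p6, RefSeq) is shown as an example, with the match in capitals.
Rsad2: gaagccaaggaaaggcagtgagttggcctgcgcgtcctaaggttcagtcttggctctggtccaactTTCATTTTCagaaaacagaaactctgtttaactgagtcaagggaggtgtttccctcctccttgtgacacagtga

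NF-kB target genes moved in both directions, and their summed level was lower in the PC. Of 27 tested, 3 were called higher (11.1%, against 17.3% of all genes) and 3 lower (11.1%, against 5.80%). The median log2 difference was -0.03. At an adjusted p below 0.05 without regard to size, 29.6% were higher and 44.4% lower, against 36.0% and 31.8% of all genes. The summed level was 1835 to 2324 CPM in the PC and 2484 to 2558 CPM in culture. Ltb, lymphotoxin beta, stood at 173, 169, 170 and 169 CPM in the PC against 421, 415 and 432 CPM in culture. Ccl22, a chemokine for T cells, and Rel, a subunit of NF-kB, fell 3.07-fold and 2.04-fold, and Nfkb2 was 1.79-fold lower. Nfkbia, which encodes IκBα, was 1.62-fold higher, Bcl2l1, the survival factor BCL-XL, rose 2.70-fold, and Relb gave a log2 difference of 0.05 (adjusted p = 0.514 by edgeR).

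Of 26 immediate-early genes, 13 were called higher (50.0%, against 17.3% of all genes) and 2 lower (7.69%, against 5.80%), with a median log2 difference of 0.93. Fos stood at 60.4, 15.2, 33.0 and 21.8 CPM in the PC against 1.39 to 2.01 CPM in culture, and Dusp1, a phosphatase that ends MAP kinase signals, stood at 107, 54.3, 68.1 and 70.2 CPM against 2.34 to 2.51 CPM. Jun rose 4.40-fold. Dusp5, an ERK-specific phosphatase, fell 7.81-fold, from 260, 265 and 253 CPM to 39.0, 20.6, 35.4 and 37.8 CPM, and Nr4a3 fell 2.66-fold. Egr1, at 93.5, 9.99, 20.3 and 18.5 CPM in the PC against 23.1 to 24.8 CPM in culture, was not called, and its PC values were spread on either side of the cultures.

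The same comparison in NFKBIE-wt cells served to test where the genotypes differed. The cells of each genotype were propagated in a separate mouse before transplantation, and the PC samples were not purified. Genotype, propagated population and host-cell content therefore cannot be told apart in these differences. Their p-values cover the spread between the samples of a group only. The difference between the genotypes in the PC effect was called for 456 of 13213 genes as higher in NFKBIE-ko (3.45%) and for 42 as lower (0.318%), by edgeR. These counts rest on single libraries. Without NFKBIE-ko culture replicate 1, 2 or 3 they were 42 and 4, 92 and 10, and 69 and 8, and without NFKBIE-wt culture replicate 1 or 2 they were 754 and 115, and 1007 and 126. Without 1 PC sample of either genotype at a time they were 136 to 307 and 13 to 34. Without the library labelled NFKBIE-wt culture replicate 3, which went against its label, they were 415 and 75.

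For mitosis the median log2 difference between PC and culture was -1.44 in NFKBIE-ko and -1.27 in NFKBIE-wt, or -1.37 without the library labelled NFKBIE-wt culture replicate 3. With and without it 0 of 43 differences were called and 2 had an unadjusted p below 0.05, against 23.5% of all genes with it and 25.8% without it. For replication the medians were -1.02 and -0.98, or -1.01 without it, with 0 of 39 called in either fit and 3 or 5 at an unadjusted p below 0.05. The cholesterol result turned on that library. Cholesterol genes summed to 3510 and 3586 CPM in NFKBIE-wt culture replicates 1 and 2 and to 787 CPM in replicate 3, near the 800 to 855 CPM of the NFKBIE-wt PC samples, and Sqle stood at 360, 358 and 27.6 CPM. The medians were -2.26 in NFKBIE-ko and -1.51 in NFKBIE-wt with 0 of 24 differences called and 3 at an unadjusted p below 0.05. Without the library the NFKBIE-wt median was -1.90, with 1 of 24 called and 11 at an unadjusted p below 0.05. The 1 call was in the higher direction, opposite to the medians.

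MHC class II genes gave -0.91 in NFKBIE-ko and -1.11 in NFKBIE-wt, or -1.50 without the library, with 0 of 10 called in either fit. Their sums in the NFKBIE-wt cultures were 3638, 9298 and 2017 CPM, so the cultures other than replicate 3 also differed from each other, and the NFKBIE-wt median was -0.16 without replicate 2. For homing genes the medians were 1.19 and 0.26, or 0.42 without the library. The differences called were 1 of 23 (Itgb2) with it, with 14 at an unadjusted p below 0.05, and 4 of 23 (Itgb2, Itga4, Itgal and Itgb1) without it, with 18. Klf2 stood at 41.3 and 54.5 CPM in NFKBIE-wt culture replicates 1 and 2 and at 536 CPM in replicate 3. Oxidative phosphorylation genes gave -0.03 and -0.02, or -0.06 without the library.

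Marker sums of other cell types differed between the genotypes. Macrophage identity genes summed to 7693 to 10198 CPM in the NFKBIE-ko PC samples and to 2517 to 4803 CPM in the NFKBIE-wt PC samples, and 8 of 26 differences were called higher, or 3 without the library labelled NFKBIE-wt culture replicate 3. In the T cell list 10 of 23 were called higher, or 7 without it, with NFKBIE-ko PC sums of 559 to 651 CPM and NFKBIE-wt PC sums of 383 to 463 CPM. The cultures had T cell sums of 362 to 424 CPM in NFKBIE-ko and 220 to 449 CPM in NFKBIE-wt, so the NFKBIE-wt PC and culture sums overlapped. Between the genotypes the neutrophil list went the other way, with sums of 57.6 to 75.0 CPM in the NFKBIE-ko PC and 216 to 578 CPM in the NFKBIE-wt PC. Large peritoneal macrophage sums overlapped, at 2262 to 4411 CPM in the NFKBIE-ko PC and 655 to 2775 CPM in the NFKBIE-wt PC. In the library labelled NFKBIE-wt culture replicate 3 the neutrophil sum was 250 CPM, against at most 5.67 CPM in the other cultures of both genotypes. NFKBIE-wt culture replicate 1 had a large peritoneal macrophage sum of 259 CPM, against at most 106 CPM in the other cultures.

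**Figure D5:**
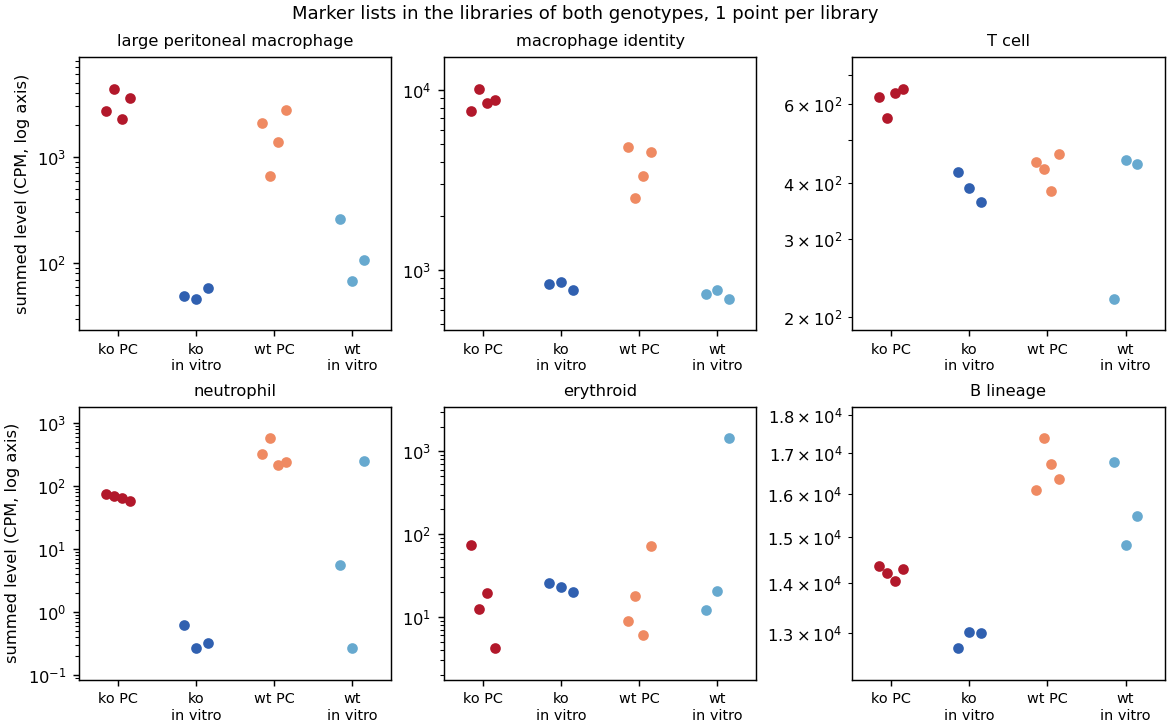
Summed level of 6 marker lists (y axis, CPM, log scale) in the PC and in vitro samples of both genotypes, 1 point per sample, scaled over all 22 samples. The NFKBIE-ko cultures lie close together in every panel, the NFKBIE-ko PC samples have the highest macrophage identity sums, and the library labelled NFKBIE-wt culture replicate 3 stands apart in the erythroid and neutrophil panels.

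The 5 largest differences in the higher direction were in Gda, Slc16a10, Iqgap2, Tbc1d2b and Anpep, all without a count in the NFKBIE-ko cultures. Gda, guanine deaminase, stood at 214 to 247 CPM in the NFKBIE-ko PC and 55.4 to 83.4 CPM in the NFKBIE-wt PC, and at 0.60, 0 and 11.6 CPM in the NFKBIE-wt cultures. Its difference was 11.4 on the log2 scale with all 14 samples and 7.58 without the library at 11.6 CPM (adjusted p = 0.0327 by edgeR), and it was called under 6 of 18 alternatives. That of Slc16a10, Iqgap2 and Tbc1d2b was also called under 6 of 18, and that of Anpep under 8 of 19. Differences of such genes rest on the low values of the cultures, and their fitted sizes set no bound.

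In the lower direction they were in B3galt5, Pcdh9, Foxp2, Abtb3 and Dusp5, and these genes were expressed in both genotypes. The calls of Pcdh9 and Dusp5 held under each of 19 alternatives, that of B3galt5 under 15, that of Abtb3 under 9 and that of Foxp2 under 8. Pcdh9, a protocadherin, fell in NFKBIE-ko from 88.2, 73.5 and 86.7 CPM in culture to 19.3, 14.3, 14.8 and 15.0 CPM in the PC. In NFKBIE-wt it stood at 77.3, 56.3 and 64.6 CPM in culture and 68.5, 77.5, 78.8 and 50.2 CPM in the PC. The difference between the genotypes was -2.45 ± 0.23 on the log2 scale (SE, adjusted p = 0.000424 by edgeR), and -2.44 without the library labelled NFKBIE-wt culture replicate 3. Dusp5 fell in both genotypes and by more in NFKBIE-ko, by a log2 difference of -1.96 ± 0.32 (SE, adjusted p = 0.0106 by edgeR). Among list genes expressed in all cultures, Itgb2 rose by 2.78 on the log2 scale in NFKBIE-ko and by 1.20 in NFKBIE-wt (difference 1.57 ± 0.20, SE, adjusted p = 0.00264 by edgeR). Impdh1 and Bcl2l1 had differences of 1.59 each, with adjusted p of 0.00695 and 0.0130 by edgeR, and Bcl2l1 was at 6.88 to 8.98 CPM in the NFKBIE-wt PC against 6.45 to 11.4 CPM in its cultures.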

How the data were processed

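TruSeq mRNA libraries were sequenced as paired ends. The authors quantified transcripts with Salmon 1.8 on GRCm39 and deposited estimated counts, not normalised, for 62492 transcripts above 0 in at least 5 samples; the deposited expected counts were rounded and summed here to 17023 genes through GENCODE vM39 names, and transcripts without a match held 0.619% of counts. Groups followed titles and source names, also for the library labelled NFKBIE-wt culture replicate 3, which went against its label, since the description of the NFKBIE-ko samples also names NFKBIE-wt. Genes were filtered with filterByExpr, scaled by TMM and tested with the edgeR 4.0.16 quasi-likelihood test (R 4.3.3), on 7 samples for PC against in vitro and on 14 for the difference between genotypes, which had 13213 genes. A call needed an adjusted p below 0.05 and a log2 difference beyond 1. On simulated data with 200 changed genes at a log2 change of 2, 200 of the 200 were recovered with 2 false calls for PC against in vitro, and 194 with 11 false calls for the difference. The changed genes were above 5 CPM and all genes had the same spread. The simulation therefore does not cover genes near 0 in culture or a library that goes against its label. Of 732 entries in 34 gene lists, 710 had a gene in the table. The list members, the comparison and the tests were chosen with earlier results of these data known. Genes named are Nfkbie, list members, and by direction the 10 called protein-coding genes with the largest fold whose groups did not overlap and whose higher mean reached 10 CPM, the same where the lower mean reached 5 CPM, and the 5 largest differences between genotypes, leaving out predicted, Rik, antigen receptor segment and mitochondrial genes. Counting intervals and floors cover counting error only. Some genes of the lists are counted but not reported here.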

Additional observations from a re-analysis of the deposited data

Results flagged for a closer look

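In 16 of 230 sets of 4 PC samples, for single genes or list sums, 1 sample lay far from the other 3 by Dixon's test, which chance gives in about 1 set in 20. PC sample 1 was high for Egr1 at 93.5 CPM, with the others at 9.99 to 20.3, for Pax5 at 276 CPM, with the others at 178 to 189, for Srebf2 at 246 CPM and for Mef2b at 10.6 CPM. PC sample 2 was high for Cfb at 185 CPM, with the others at 69.2 to 87.7, and for Fcgr4 at 207 CPM, with the others at 101 to 115. It was also high for E2f7 at 6.70 CPM, for the MHC class II sum at 5185 CPM, with the others at 4121 to 4243, and for the amino acid and integrated stress response sum at 2166 CPM. PC sample 3 was low for Prg4 at 23.4 CPM, with the others at 71.5 to 79.0, for Fn1 at 537 CPM and for Pold1 at 109 CPM, and high for Hmgcs1 at 41.5 CPM, where the others lay between 40.4 and 40.5. PC sample 4 was low for Vegfa at 16.9 CPM, with the others at 23.2 CPM or more, and high for Klf4 at 18.3 CPM and for Slc25a20 at 57.3 CPM.

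The effect of the PC differed between the NFKBIE-ko and NFKBIE-wt samples for 39 of the 195 named genes tested, by the edgeR test of the difference itself. Of all 13213 genes, 3.45% were called higher and 0.318% lower. The named genes include the 5 in each direction chosen for the largest such differences, and others chosen for a large fold in the PC. The 39 are therefore partly a result of that choice and give no share to compare with all genes. Genotype, propagated population and host-cell content cannot be told apart in these differences. The values are log2 differences between the genotypes in the PC effect. Among genes expressed in all cultures they were 1.57 for Itgb2, 1.59 for Impdh1, 1.59 for Bcl2l1, 1.45 for Ndrg1, 1.86 for Ctsb, 1.52 for Cd68, 2.54 for Ctsl, 3.82 for Myof, 2.41 for Itgam, 2.48 for Hdc, -1.96 for Dusp5, -2.45 for Pcdh9, -2.35 for Foxp2, -2.31 for Abtb3 and -4.04 for B3galt5. Myof was at 46.1 CPM in the library labelled NFKBIE-wt culture replicate 3 and at 3.45 and 6.43 CPM in the other 2, and its difference was 1.88 without that library. Several of these calls were lost under 9 or more of the 18 or 19 alternatives that gave a value. The call held under 5 for Ctsl, 7 for Cd68, 8 for Foxp2, 9 for Abtb3 and 9 for Myof. Without the library labelled NFKBIE-wt culture replicate 3, which went against its label, Ctsl and Cd68 were not called (adjusted p = 0.0727 and 0.0517 by edgeR).

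The other differences belong to genes at or below 2.15 CPM in each NFKBIE-ko culture, and their size depends on those low values. For macrophage, complement and chemokine genes they were 9.38 for Lyz2, 4.15 for Csf1r, 8.74 for C1qb, 5.28 for Arg1, 5.54 for C3, 9.69 for F13a1, 9.34 for Ccl6, 7.74 for Ccl9, 9.20 for Selenop, 9.22 for Fn1, 11.4 for Gda, 11.1 for Slc16a10, 10.7 for Iqgap2, 9.99 for Tbc1d2b, 9.90 for Anpep and 2.89 for Hk3. For T and cytotoxic cell genes they were 6.13 for Cd3e, 9.45 for Cd8a, 9.71 for Trbc2, 8.77 for Gzma and 8.01 for Gzmb. The last were 7.04 for Ccnd1, 7.21 for Fads2 and 3.24 for Krt8. Ccnd1 stood at 0.83 to 3.36 CPM in the NFKBIE-wt PC samples, below each NFKBIE-ko PC sample. Among all genes of this paragraph, the call held under 4 alternatives for Csf1r, 5 for C1qb, 6 each for Hk3, Gda, Slc16a10, Iqgap2 and Tbc1d2b, 7 for Cd8a, 8 each for Cd3e, Selenop and Anpep, 9 each for Trbc2 and Fn1, and 11 to 19 for the others. Without the library labelled NFKBIE-wt culture replicate 3, the differences of Csf1r, C1qb, F13a1, Ccl9, Selenop, Fn1, Anpep, Hk3, Cd3e, Cd8a, Ccnd1 and Krt8 were not called.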

How the results depend on the processing

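The counts of genes gained and lost stayed within 1.5 times of 2205 and 738 under DESeq2 size factors, B-lineage size factors, no filter on low counts, the DESeq2 1.42.0 test and a fit of all 22 samples. With at least 5 CPM in at least 3 samples required they were 1238 and 481, where fewer genes were tested, and with transcripts in place of genes 3629 and 1392. Leaving out 1 sample at a time gave 2098 to 2273 gained and 699 to 738 lost. B-lineage size factors moved the median log2 difference of all genes from 0.03 to -0.07 and the share of calls that were higher from 74.9% to 69.6%. With them the list median was -1.10 for DNA replication, -0.11 for oxidative phosphorylation and -2.34 for cholesterol synthesis, and in the fit of all 22 samples it was -2.29 for cholesterol synthesis. The stricter filter gave medians of 6.97 for macrophage identity and 10.5 for large peritoneal macrophages, and the DESeq2 test gave 9.14 for the last. Without 1 sample at a time the list medians ranged from -1.06 to -0.96 for DNA replication, from -1.48 to -1.35 for mitosis and from -2.27 to -2.22 for cholesterol synthesis. Medians of small lists changed sign: eosinophil genes gave 1.26 with no filter, 0.90 with the DESeq2 test and 1.20 in the fit of all 22 samples, platelet genes gave 2.34 with no filter and 1.53 with the DESeq2 test, and erythroid genes gave -3.10 with the stricter filter. These lists had 3 to 5 genes tested, and the cause was not tested.

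Samples with the same replicate number did not deviate together (correlations of 0.0413, 0.0157 and -0.0158 for numbers 1 to 3), and the cultures came from other mice than the PC samples, so the numbers were not used as pairs. A replicate block on the 6 samples numbered 1 to 3 gave 2071 gained and 703 lost, against 2098 and 707 for the same 6 samples without the block, a setting added after seeing the data.

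The difference between genotypes was less stable. The DESeq2 test gave 953 differences higher and 74 lower, and leaving out 1 of the 14 samples at a time gave 42 to 1007 higher and 4 to 126 lower, the lowest without NFKBIE-ko culture replicate 1 and the highest without NFKBIE-wt culture replicate 2. Of the genes named, 195 were tested for PC against in vitro under the alternatives, 0 changed direction with a call and 22 crossed the limit for a call under at least 1 alternative, among them Cdkn2d, Ccne1, Slc25a20, Icam2, Rel, Ccl22 and Slc16a3. Of the 39 differences named, 5 (Pcdh9, Dusp5, Itgb2, Impdh1 and C3) were called under each of 19 alternatives, 19 more under at least as many alternatives as not, and 15 under fewer than not. Without the library labelled NFKBIE-wt culture replicate 3, 25 of the 39 were called and 14 were not.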
